A study of Mus musculus with 5 samples.

Results

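The cytosolic ribosome is built from a small and a large subunit, and each of its proteins is encoded by a gene that nearly every cell transcribes at a high level. The mRNAs of these genes belong to the TOP class, named after a terminal oligopyrimidine tract, a run of C and T letters that starts the transcript and through which mTOR signalling adjusts their translation. Making ribosomes is a large cost for a growing cell.

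The genes were taken by symbol, as every row named Rpl or Rps followed by a number, together with Rpsa, Rplp0, Rplp1 and Rplp2. This gave 82 of 18384 genes, of which 31 encode small subunit proteins, 43 large subunit proteins, 3 the acidic stalk of the large subunit and 5 paralogues with an extra L in the name (Rpl3l, Rpl7l1, Rpl10l, Rpl22l1 and Rps27l). Fau, whose product is processed to the ribosomal protein S30, carries another symbol and was counted among the translation partners.

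The cells came from MMTV-PyMT organoids, grown from mouse mammary tumors in which the mouse mammary tumor virus promoter drives polyoma middle T in mammary epithelial cells. All were cultured in BME, a basement membrane extract, in medium with FGF2, and then embedded for 5 days in BME (no invasion, per the labels) or in Collagen I (invasion). Live single cells (DAPI-negative) were sorted into 384-well plates and sequenced with the SORT-seq protocol, which counts 1 tag at the 3′ end of each transcript, so that levels of different genes can be compared without a correction for length. The plates numbered 3 for BME and 2 for Collagen I, the latter labelled replicates 1 and 3, and a Collagen I replicate 2 was not analysed here. Whether plates of the same matrix hold cells of separate cultures is not stated, so p-values measure the spread between plates.

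Wells were kept with over 500 counts, under 8000 genes and under 10% of counts in genes with the prefix mt-, which left 944 BME and 556 Collagen I wells. Basal wells held Krt5, Krt14 and Krt17, the keratins of basal mammary cells, at 5 or more per 10000 counts (302 BME and 226 Collagen I wells), and non-basal wells under 2 (537 and 277). Cycling wells held 14 mitosis genes at 5 or more per 10000 (586 and 171), and non-cycling wells under 2 (155 and 261). The classes overlap, since a basal well can also be cycling. The median counts per basal well were 16930 to 26524 on BME plates and 2579 to 4124 on Collagen I plates. The same limits therefore rest on fewer counted transcripts in Collagen I. In basal wells the summed level of 11 basal markers was 3192 to 4219 CPM in BME and 4739 to 5015 CPM in Collagen I. In non-basal wells it was 296 to 346 and 399 to 436 CPM. These markers include Krt5, Krt14 and Krt17, so the class limits themselves set part of this gap. The smooth muscle marker Cnn1 was at 0 in basal wells of both matrices.

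The plates differed before any gene was looked at. Kept wells held 8104849 to 9084335 counts per BME plate and 1026495 to 1430023 per Collagen I plate. The names of the deposited files place the BME plates on 1 sequencing run and each Collagen I plate on a run of its own, so matrix, run and depth cannot be told apart. Rn45s, the precursor of ribosomal RNA, took 2.05% ± 0.564 of counts in BME (SD, n = 3) and 7.59% ± 1.07 in Collagen I (SD, n = 2).

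Ribosomal protein transcripts made up 14.6% ± 2.03 of counts in BME (SD, n = 3) and 12.5% ± 0.456 in Collagen I (SD, n = 2). By plate they took 12.3%, 16.1% and 15.4% of counts on BME plates 1, 2 and 3, and 12.1% and 12.8% on Collagen I plates 1 and 3. BME plate 1 lay with the Collagen I plates, and the other two BME plates lay above them. The split between the subunits differed less, with 52.4% to 55.98% of the pool in large subunit genes over the 5 plates and 39.9% to 42.8% in small subunit genes.

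Of the 82 genes, 62 exceeded 1000 CPM (counts scaled to a total of 1000000 per plate) as a mean over plates and 11 were at or below 100 CPM. Rpl41, which encodes the shortest protein of the ribosome, had the highest mean at 4134 CPM. Other genes at the top were Rpl4 (3915 CPM), Rps12 (3569 CPM), Rpl10 (3236 CPM), Rps2 (3180 CPM), Rplp1 (3097 CPM), Rpsa (3031 CPM), Rpl17 (2881 CPM) and Rpl38 (2757 CPM).

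The genes at the bottom included proteins that every ribosome carries. Rps27 and Rpl30 had 1.09 and 1.45 CPM, Rpl34 had 3.27 CPM, Rplp2 had 9.28 CPM, Rpl37 had 21.1 CPM and Rps15a had 24.3 CPM. Rpl26 was listed with 3 counts over all 5 plates. Such levels are far below those of their partners in the same particle, and how reads that match several genes were counted is not given in the sources used here. For that reason the 3′ sequence of each gene was compared with all other GENCODE vM21 transcripts. Of the 60-base stretches in the last 300 bases of Rps27, 100% also occurred in the transcript of another gene, and the share was 80.1% for Rpl30, 58.5% for Rpl26 and 76.3% for Rps15a. The share was 0% for Rpl37 and 2.49% for Rplp2, and it was also high in abundant genes such as Rpl10 (100%) and Rps12 (94.2%). Over 50% was shared by 7 of the 13 genes up to 200 CPM and by 32 of the 69 above, with medians of 52.3% and 47.7%. Values of genes with shared 3′ ends are therefore uncertain wherever the counting could move reads between copies, and the part of this in the low levels was not tested.

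The tract that defines TOP mRNAs was looked for in RefSeq promoter windows of build GRCm38.p6, which were given for 62 of the 82 genes. Each gene was represented by the window with its longest run, so a gene with several annotated starts had more chances. A run of 8 or more C or T letters on the transcribed strand within 40 bases of the start was sought. It was found in 47 of these 62 genes, or 75.8%, and in 32.6% of all 27025 genes with a window. It was present in 64.7% of 17 windows of translation partners, in 25% of 16 windows of other initiation factors and in 33.3% of 69 windows of mitochondrial ribosomal protein genes. The 30 bases around the longest run are shown for genes that the comparisons below turn on, with the run in capitals.
Rpl4, chr9:64173361-64173390, plus strand: gtgacaagTCTTTCCTTTTCCTgtgggagc
Rpl12, chr2:32961662-32961691, plus strand: gcgagagctgagCTTTTCCgcctatatccg
Rps15a, chr7:118116143-118116172, minus strand: gcccggcccaCTCTCTTTCTgccatcttcc
Rps15, chr10:80292446-80292475, plus strand: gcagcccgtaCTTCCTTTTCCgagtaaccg
Rpl38, chr11:114668568-114668597, plus strand: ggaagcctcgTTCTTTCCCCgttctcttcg
Rps28, chr17:33824567-33824596, minus strand: tctgtcccgaggaTTCCTgggtaccgcgtg
The run held 14 letters in Rpl4, 10 in Rps15a, 11 in Rps15 and 10 in Rpl38, and it stayed below the limit in Rpl12 (7) and Rps28 (5). A run is a match of letters and not a measured start, and an annotated start may lie some bases from the start used in these cells.

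**Figure D1:**
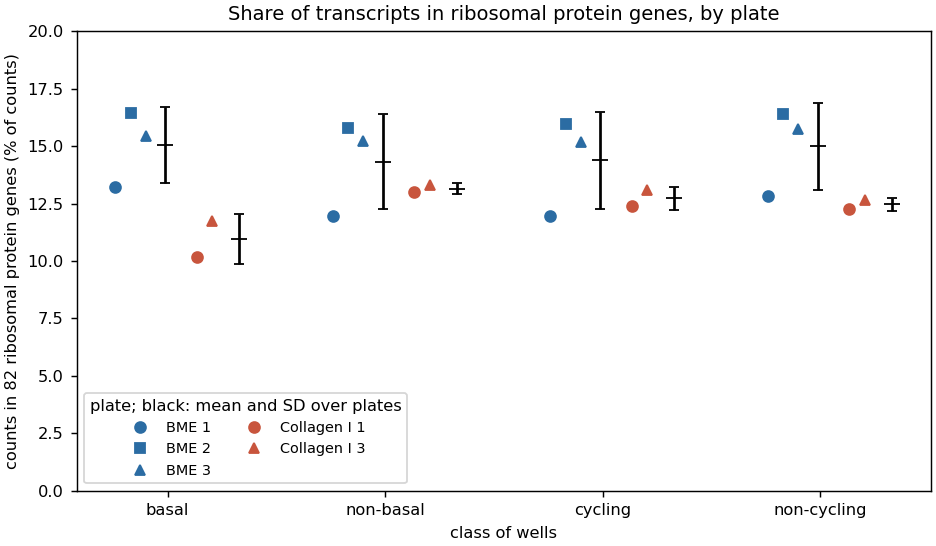
Share of counts in the 82 ribosomal protein genes (vertical axis, % of counts) in 4 classes of wells, with 1 point per plate and the mean and SD over plates in black. In basal wells both Collagen I plates (10.2% and 11.7%) lie below the 3 BME plates (13.2% to 16.5%), whereas in non-basal wells they lie between them.

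Beyond the total, the genes were not in the same proportions on the 3 BME plates. Plate 1 stood apart within the pool, as the plot of the BME plates shows. Among 70 genes above 100 CPM, 8 took a share of the pool on plate 1 that was lower than the mean of plates 2 and 3 by more than 0.5 on the log2 scale, and 1 a share that was higher by as much. Rps19, a small subunit protein known from Diamond-Blackfan anemia, had 458, 1607 and 1196 CPM on BME plates 1, 2 and 3. Rpl14 had 427, 1086 and 911 CPM, Rps14 839, 1903 and 1650 CPM, and Rps21 983, 2225 and 1878 CPM. Rps16 took the higher share, with 2708, 2466 and 2402 CPM. The ratio of plate 2 to plate 3 stayed between -0.15 and 0.37 on the log2 scale in these 70 genes, whereas that of plate 1 to the mean of plates 2 and 3 ran from -1.25 to 0.51. The median share of 3′ sequence in common with other genes was 16.2% in the 8 low genes and 47.3% over the genes above 100 CPM. Because of this plate, the number of ribosomal protein genes called between the matrices is given with and without it for each class of wells. Fold changes of single genes and of the other lists rest on all plates.

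**Figure D2:**
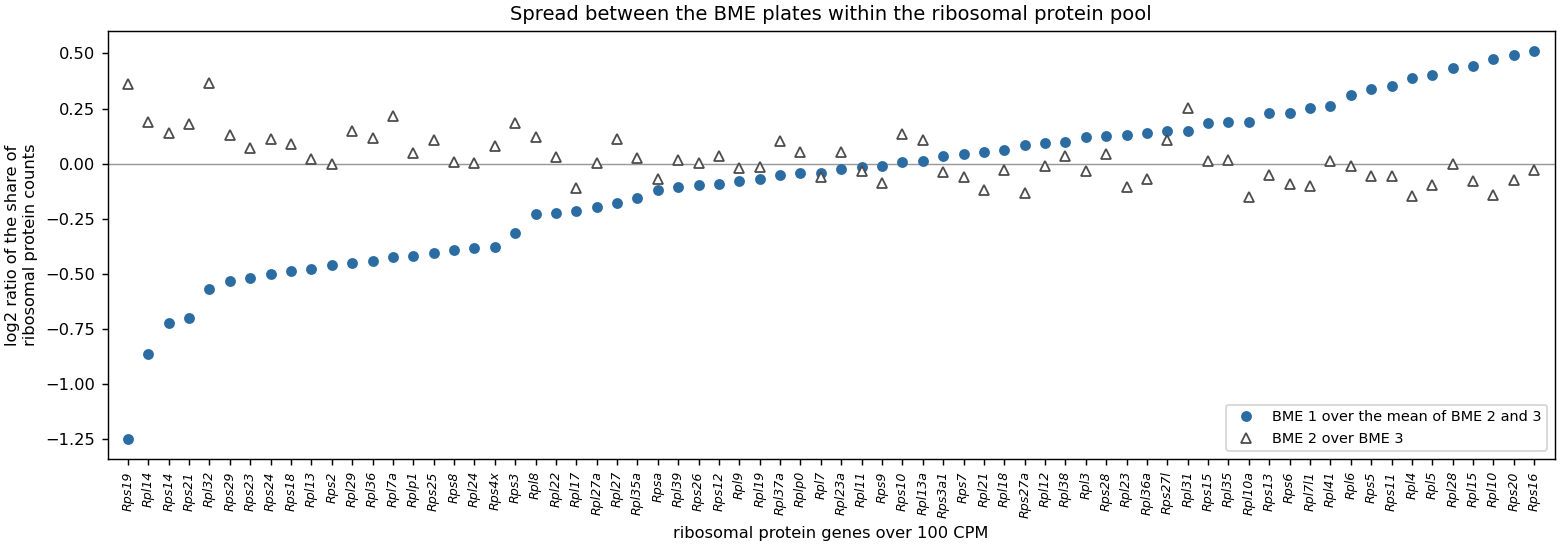
Log2 ratio of each gene's share of all ribosomal protein counts (vertical axis) for 70 genes above 100 CPM (horizontal axis), with filled circles for BME plate 1 over the mean of plates 2 and 3 and open triangles for plate 2 over plate 3. The circles run from -1.25 (Rps19) to 0.51 (Rps16), and the triangles stay between -0.15 and 0.37.

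The first comparison asked how basal wells differ between the matrices. The levels lay lower in Collagen I, and the abundant genes that passed the test were led by Rpl4 and Rpl12. Of 76 genes tested, 18 were called at an adjusted p under 0.05 (edgeR quasi-likelihood test, Benjamini-Hochberg over all genes), each of them lower in Collagen I, while 8.31% of all 10296 genes tested were called lower and 10.8% higher. The median log2 fold change was -0.45 over the ribosomal protein genes and -0.03 over all genes. Both Collagen I plates lay below all BME plates for 47 of the 76 genes, and above them for 1, beside 29.7% and 23.5% of all genes.

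Rpl4 encodes a large subunit protein whose long loop lines the exit tunnel of the nascent chain. In basal wells it had 5380, 4730 and 4674 CPM in BME and 2088 and 2511 CPM in Collagen I. The plates of the 2 matrices did not overlap, and the log2 fold change was -1.06 (standard error 0.22, adjusted p = 0.0016, edgeR). Rpl12, which forms the base of the stalk, had 2441, 2777 and 2622 CPM against 1312 and 1468 CPM, again without overlap (log2 fold change -0.87, standard error 0.20). Rpl31, at the rim of the tunnel exit, had 207, 232 and 207 CPM against 129 and 112 CPM (-0.80, standard error 0.20).

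The small subunit gene Rps24 had 1318, 2402 and 2048 CPM in BME and 982 and 1201 CPM in Collagen I, and BME plate 1 lay close to the Collagen I plates without overlap (-0.77, standard error 0.23, adjusted p = 0.023, edgeR). Rps15a rested on few transcripts, with 29.04, 50.997 and 32.2 CPM against 4 and 1 counts on the Collagen I plates (-2.50, standard error 0.56). It passed the filter on low counts through its level on the BME plates, so its call carries no weight of its own. Other genes called lower were Rps23, Rps12, Rpl13a, Rpl13, Rpsa, Rpl23, Rps25, Rps26, Rpl18, Rps6, Rpl3 and Rps27l, with log2 fold changes between -0.76 and -0.60.

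Of the other genes followed in every comparison, Rpl3, which lies at the peptidyl transferase centre, had 2267, 2623 and 2461 CPM against 1623 and 1524 CPM (-0.60, adjusted p = 0.037, edgeR). Rps6, the substrate of S6 kinase, had 3094, 3161 and 3196 CPM against 1782 and 2225 CPM (-0.61, adjusted p = 0.045). Rpl5 and Rpl11, which with 5S RNA form the particle that can bind Mdm2, had log2 fold changes of -0.49 (adjusted p = 0.096) and -0.46 (adjusted p = 0.11) and were not called, like Rps27a, whose product is a fusion to ubiquitin (-0.48, adjusted p = 0.11). The stalk genes were not called either, with -0.45 for Rplp0, -0.64 for Rplp1 and -1.15 for the rare Rplp2.

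By subunit, 9 of 30 small subunit genes and 8 of 40 large subunit genes were called lower, with medians of -0.50 and -0.37. Among 23 translation partners 9 were called lower, including Eef1a1 (-0.97), the elongation factor that brings tRNA to the ribosome, Eef1b2 (-1.07), its exchange factor, and Npm1 (-1.01), a nucleolar protein of ribosome assembly. Of 76 mitochondrial ribosomal protein genes 13 were called lower, with a median of -0.52, against -0.45 over the cytosolic ribosomal protein genes. Of 19 other initiation factors 3 were lower and 1 higher, with a median of -0.03. Rn45s rose (log2 fold change 1.88, standard error 0.32).

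The number of calls in basal wells depended on the plates. It was 39 of 75 without BME plate 1, where 23.7% of all genes were called in either direction. It was 5 of 74 without BME plate 2 and 5 of 74 without BME plate 3, beside 22.3% and 15.6% of all genes. With 1 Collagen I plate left, which is taken to vary like the others, it was 3 of 77 without plate 1 and 4 of 78 without plate 3, beside 9.51% and 7.70% of all genes. In these last 4 fits the share of ribosomal protein genes called was below that of all genes, while the median stayed between -0.56 and -0.36. Scaled to the ERCC spike-in RNA instead, 2 of 76 genes were called, beside 4.98% of all genes. All genes then shifted by a median of -0.44, and the ribosomal protein genes lay 0.36 further down on the log2 scale. Other features moved with the matrix in basal wells. Wells that were also cycling made up 49 of 96, 49 of 114 and 55 of 92 basal wells in BME, and 22 of 88 and 41 of 138 in Collagen I. The summed level of 12 luminal markers was 1250 to 1315 CPM in BME and 3999 to 4023 CPM in Collagen I, and that of 7 fibroblast markers was 23.9 to 35.3 and 71.9 to 418 CPM. Without cycling wells in both keratin classes, 32 of 73 genes were called lower, beside 12.6% of all genes called in either direction. The median was -0.66, so the median shift was larger there. The part of the luminal and fibroblast transcripts in the result was not tested.

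**Figure D3:**
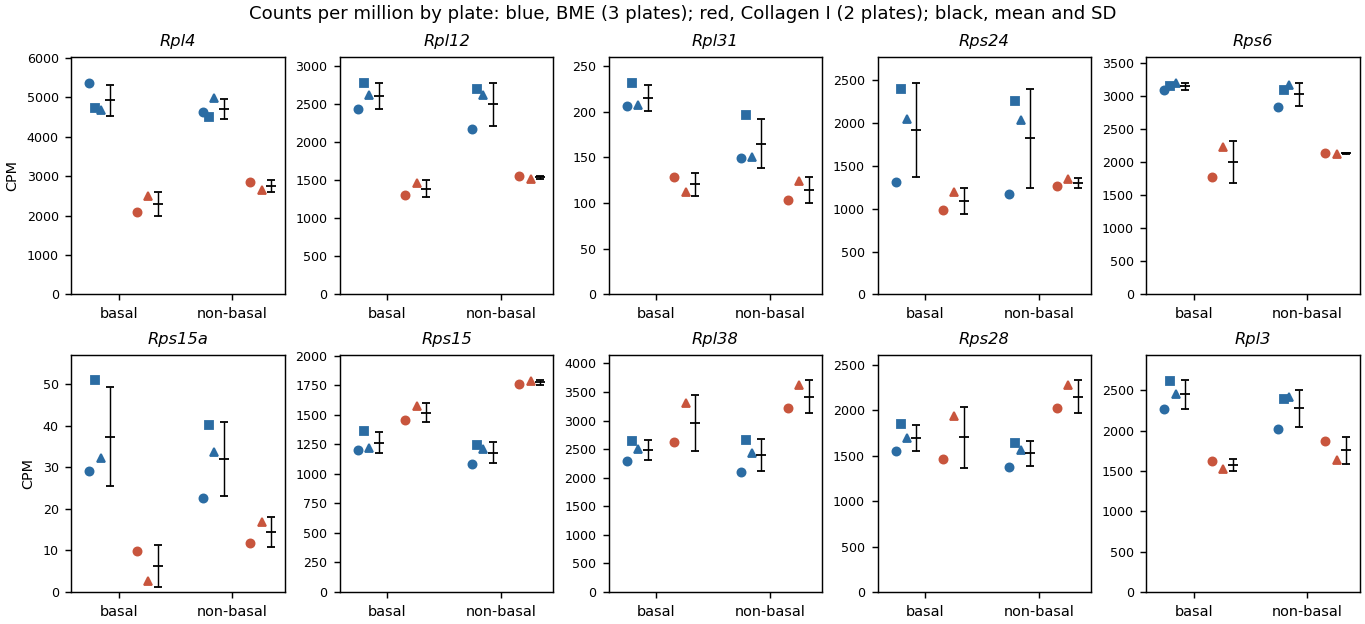
CPM (vertical axes, from 0) of 10 ribosomal protein genes in basal and non-basal wells, with blue points for BME plates, red points for Collagen I plates (circle, square and triangle for replicates 1, 2 and 3) and the mean and SD in black. Rpl4 and Rpl12 lie lower in Collagen I in both classes, whereas Rps15 lies higher in both.

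In non-basal wells the matrix was asked about in the same way, and the pool as a whole depended on BME plate 1. Of 77 genes tested, 7 were called lower and 3 higher in Collagen I (edgeR; 5 and 4 with RLE size factors), beside 13.9% and 14.1% of all genes tested (28% in either direction), and the median was -0.15, against -0.03 over all genes. Rpl4 had 4644, 4493 and 4982 CPM in BME and 2861 and 2650 CPM in Collagen I (log2 fold change -0.75). Rpl12 had 2173, 2708 and 2623 CPM against 1555 and 1524 CPM (-0.68). Both were again apart between the matrices. Of 76 mitochondrial ribosomal protein genes, 31 were called lower and 1 higher in non-basal wells, with a median of -0.55. In cycling wells 10 of these mitochondrial genes were lower and 1 higher, with a median of -0.44, beside 5.43% of all genes called lower.

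Rps15, Rpl38 and Rps28 were the genes called higher. Rps15, a small subunit protein near the decoding site, had 1084, 1247 and 1209 CPM in BME and 1759 and 1788 CPM in Collagen I (0.61). Rpl38, known for its role in the translation of Hox mRNAs, had 2102, 2662 and 2427 CPM against 3214 and 3624 CPM (0.54), and Rps28 had 1373, 1642 and 1565 CPM against 2023 and 2279 CPM (0.52). No plate of one matrix overlapped with the other in these genes. Scaled to ERCC, their fold changes turned to -0.21, -0.31 and -0.33 with all genes shifted by a median of -0.87, so relative to other genes they stayed up.

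The remaining genes called lower in non-basal wells were Rps15a, Rpl31, Rps6 (-0.48) and the paralogues Rps27l (-0.58) and Rpl7l1 (-0.49). Wells that were also cycling made up 135 of 190, 120 of 166 and 114 of 181 non-basal wells in BME. In Collagen I they made up 46 of 133 and 48 of 144. With cycling wells left out of both keratin classes, 2 of 72 genes were called, each of them higher, beside 17.4% of all genes called. The median was then -0.01, against -0.03 over all genes. Without BME plate 1, 35 genes were called lower and 4 higher with a median of -0.28, beside 35.5% of all genes called. Without BME plates 2 and 3, 8 of 76 and 5 of 76 genes were called, beside 28.1% and 23.2% of all genes. The medians were -0.06 and -0.08, and without Collagen I plates 1 and 3 they were -0.11 and -0.18. In cycling wells 3 of 78 genes were called lower, Rpl4 (-0.93), Rpl12 (-0.81) and Rpl31 (-0.61), beside 5.43% of all genes called lower and 6.77% called higher, and the median was -0.26 against -0.07 over all genes. Without BME plate 1 there were 37 lower and 1 higher with a median of -0.35, beside 22.4% of all genes called, without Collagen I plate 1 or 3 it was 0, and with library sizes alone 2 genes were lower and 1 higher.

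The second question was how basal and non-basal wells of the same plate differ. This comparison sets wells of 1 library against each other, so run and depth of the plate drop out, although not depth per well. In BME basal wells held slightly more ribosomal protein transcripts than non-basal wells, by 1.28, 0.651 and 0.202 percentage points of all counts on plates 1, 2 and 3. In Collagen I they held less, by -2.81 and -1.58 percentage points on plates 1 and 3. The signs were the same within each matrix and opposite between the matrices.

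Gene by gene in BME, 6 of 77 genes were called higher and 2 lower in basal wells, beside 18% and 17.3% of all 10862 genes tested. The median was 0.06 on the log2 scale, against 0.00 over all genes. The 6 encode large subunit proteins, Rpl31 (0.38), Rpl37a (0.24), Rpl32 (0.24), Rpl13 (0.21), Rpl39 (0.19) and Rpl9 (0.17). The 2 lower genes were the paralogues Rps27l (-0.42, standard error 0.08) and Rpl7l1 (-0.35, standard error 0.09). Without BME plate 1, 4 of 76 genes were called, beside 26.9% of all genes. Without plate 2 it was 3 of 76 (27.1% of all genes), and without plate 3 it was 3 of 75 (32.8%).

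In Collagen I, 49 of the same 77 genes were called, each of them lower in basal wells, beside 3.31% of all genes called lower and 4.35% called higher (7.66% in all). The median was -0.33, against -0.05 over all genes. The genes included 22 of 30 small subunit genes (median -0.35), 24 of 41 large subunit genes (median -0.29) and 2 of 3 stalk genes. Of the 77 genes, 66 lay lower in basal wells on both Collagen I plates and none lay higher on both, beside 30% and 30.2% of all genes. In BME, 42 lay higher in basal wells on all 3 plates and 4 lay lower, beside 31.1% and 29.1%.

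The stalk, which recruits the elongation factors, was at the front of the order. Rplp1 had 2009 and 2196 CPM in basal and 2996 and 2928 CPM in non-basal wells of Collagen I (log2 fold change -0.55, standard error 0.08, adjusted p = 2.0e-05, edgeR), whereas in BME it had 2429, 4062 and 3634 CPM in basal and 2211, 4007 and 3794 CPM in non-basal wells (0.02, standard error 0.06). Rplp0, the protein that anchors the stalk, had 1616 and 1910 CPM against 2376 and 2331 CPM in Collagen I (-0.48, standard error 0.09). Rplp2 was rare, with 1 and 3 counts in basal wells of Collagen I (log2 fold change -0.67, standard error 0.96).

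Rps27l, a paralogue of Rps27 and a target of p53, was also among the leading genes in Collagen I (-0.52), but it was lower in basal wells of BME as well, so its change did not differ between the matrices beyond its error (difference -0.10, standard error 0.15). The other leading genes were Rpl14 (-0.49), Rps21 (-0.47) and Rps20 (-0.45). Rpl4 and Rpl5 were called (-0.32 and -0.29), and so was Rpsa (-0.41), the laminin receptor precursor. Rpl3 (-0.22), Rpl11 (-0.28), Rps6 (-0.16) and Rps27a (-0.23) were not called. Rpl31 stood at 0.05 and Rpl24 at -0.03.

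**Figure D4:**
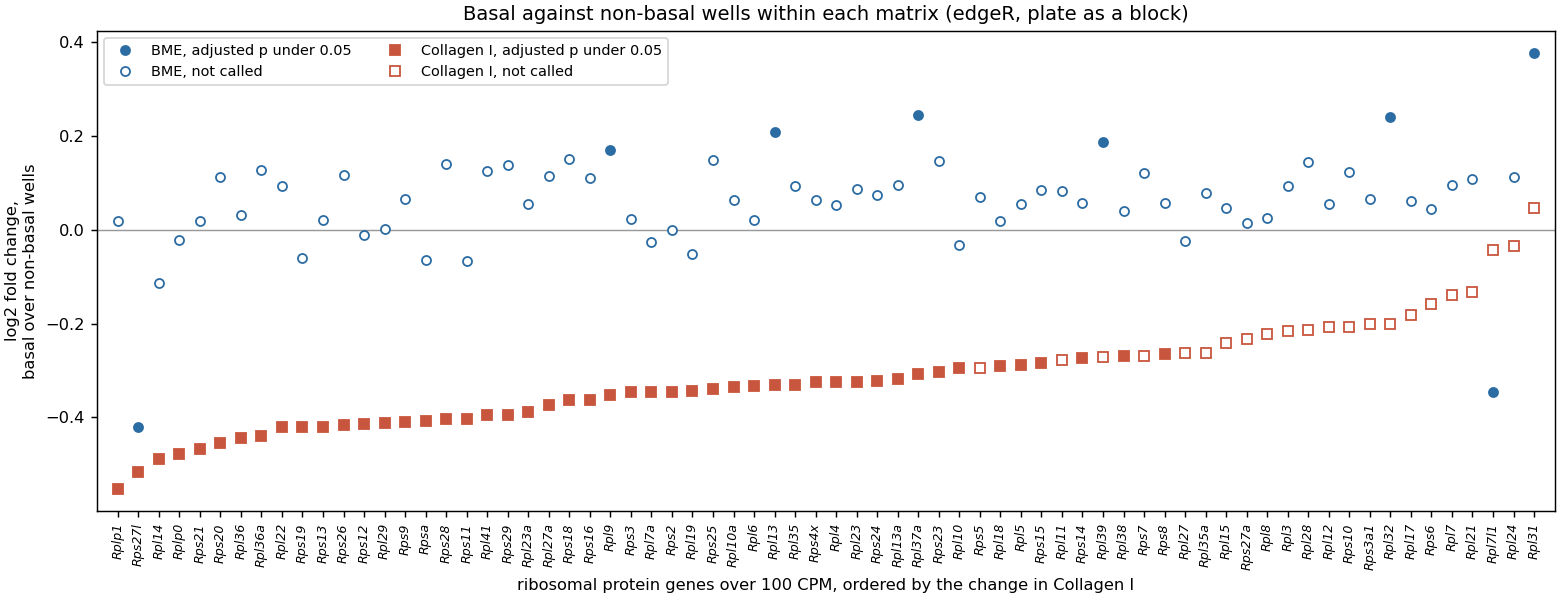
Log2 fold change of basal over non-basal wells (vertical axis) for each ribosomal protein gene above 100 CPM (horizontal axis), with blue circles for BME and red squares for Collagen I, filled where the adjusted p was under 0.05. The red squares lie below 0 for all genes shown except Rpl31, and nearly all blue circles lie between -0.12 and 0.25.

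The difference between the matrices was then tested itself, as the contrast of the 2 class effects in 1 fit with the plate as a block. That contrast sets BME plates against Collagen I plates, so matrix, run and depth cannot be told apart in it. Of 77 genes, 34 were called (edgeR), each with a lower basal effect in Collagen I, beside 2.81% of all genes called in that direction and 1.45% in the other (4.26% in all). The median difference was -0.38 on the log2 scale, against -0.08 over all genes. Higher in basal wells of every BME plate and lower in basal wells of both Collagen I plates were 36 of the 77 genes, and 5.1% of all genes.

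The largest differences were those of Rplp1 (-0.57, standard error 0.11), Rps20 (-0.57), Rpl36a (-0.57), Rpl37a (-0.55), Rps28 (-0.55) and Rpl13 (-0.54). Of the 60-base stretches at the 3′ end, 61.4% in Rplp1 and 100% in Rpl36a also occur in another gene, and 0% in Rps20. Rps20, a small subunit protein, had 3462, 2733 and 2841 CPM in basal and 2863, 2701 and 2674 CPM in non-basal wells of BME, and in Collagen I 1737 and 2172 against 2508 and 2610 CPM. Rpl13 had 2246, 3886 and 3598 CPM against 1823, 3362 and 3232 CPM in BME, and 1885 and 1926 against 2311 and 2299 CPM in Collagen I. In both genes each plate moved in the direction of its matrix.

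**Figure D5:**
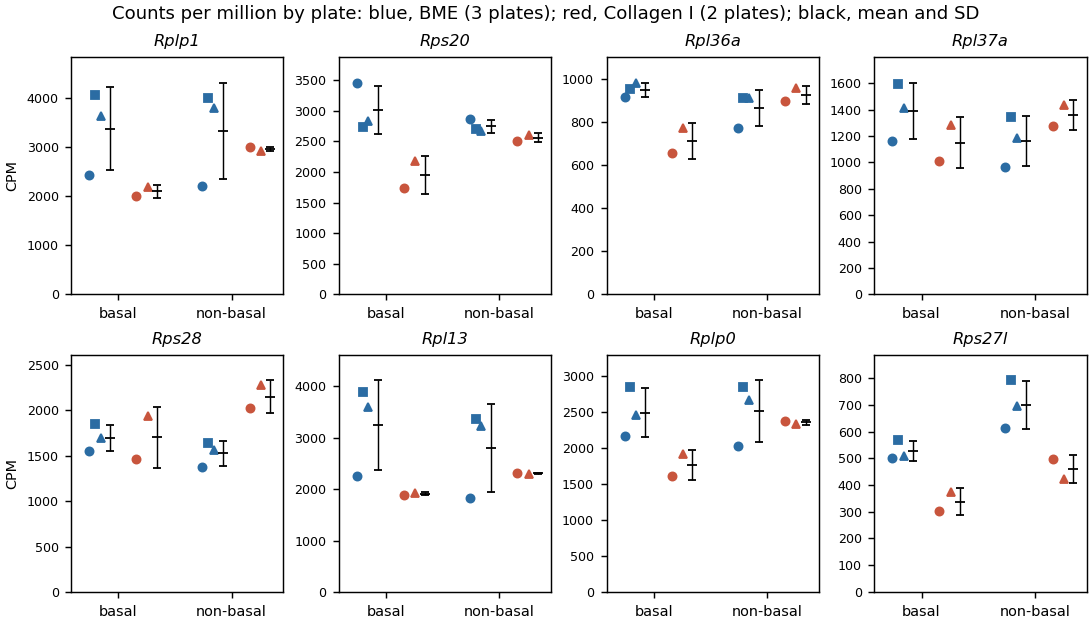
CPM (vertical axes, from 0) of 8 ribosomal protein genes in basal and non-basal wells, with blue points for BME plates, red points for Collagen I plates (circle, square and triangle for replicates 1, 2 and 3) and the mean and SD in black. In Collagen I the basal values lie below the non-basal values for each gene shown, and in BME Rps27l lies lower in basal wells on each plate.

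Fau, which the symbols left out, also had a lower basal effect in Collagen I (difference -0.43, standard error 0.11). Of 23 translation partners 5 were called with a lower basal effect in Collagen I, among them Fau, Eef2 (-0.46), Eef1b2 (-0.42) and Eif3h (-0.57), and the median was -0.25. Other initiation factors went the other way, with a median of 0.19 and 2 of 19 called higher. Mitochondrial ribosomal protein genes had a median of -0.09 with 1 of 76 called, and it was higher. By sequence feature, the median differences were -0.38 in 44 genes with a run of 8 letters and -0.38 in 14 without it, and -0.35 in 36 genes with over 50% shared sequence and -0.39 in 41 others.

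Both counts changed with the wells and plates used. Without cycling wells, 3 of 73 genes were called lower in Collagen I, a share near the 3.29% of all genes called, with a median of -0.51. The basal effect was then lower in Collagen I than in BME for 17 of 73 genes, beside 2.24% of all genes called, with a median of -0.75. The number called lower in Collagen I was 26 of 76 without BME plate 2, beside 7.78% of all genes called. The number that differed between the matrices was 7 of 76 without BME plate 2, beside 3.44% of all genes. It was 14 of 76 without BME plate 1 (2.89% of all genes) and 17 of 75 without BME plate 3 (4.86%). Leaving out a Collagen I plate leaves 1 plate of that matrix. Without plate 1 the medians of the ribosomal protein genes were -0.27 in Collagen I and -0.33 for the difference, beside -0.07 and -0.12 over all genes. Without plate 3 they were -0.39 and -0.45, beside -0.05 and -0.09 over all genes. The size of the class effect in Collagen I thus varied with the plate. Summed mitosis genes were 479 to 640 CPM in basal and 1382 to 1451 CPM in non-basal wells of Collagen I, and 1278 to 2079 and 1815 to 2428 CPM in BME, and Rn45s showed no called change between the classes in Collagen I (0.02). Luminal markers summed to 1250 to 1315 CPM in basal and 2548 to 2948 CPM in non-basal wells of BME, but to 3999 to 4023 and 4297 to 4631 CPM in Collagen I, so they set the classes less far apart there. The part of these markers in the class difference was not tested.

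Cycling wells were compared with non-cycling wells of the same plates last. In BME the ribosomal protein share was lower in cycling wells on each plate, by -0.876, -0.420 and -0.552 percentage points, and in Collagen I the differences were 0.104 and 0.406 percentage points. In BME 31 of 75 genes were called lower and 2 higher (edgeR), beside 21% and 17.6% of all 9192 genes tested. The medians were -0.16 over the ribosomal protein genes and -0.07 over all genes, and the calls depended on scaling, plates and tool. There were 15 lower and 3 higher with RLE size factors, 11 and 5 with library sizes alone, and 11 and 4 when the factors were taken without ribosomal protein genes, chromosome M, Rn45s, Malat1 and Lars2. Without BME plates 1, 2 and 3 there were 6, 12 and 5 calls in all, without Collagen I plates 1 and 3 there were 12 and 11, and DESeq2 made 4.

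Rpl39, a short protein in the wall of the exit tunnel, had 1255, 1887 and 1788 CPM in cycling and 1711, 2370 and 1977 CPM in non-cycling wells (log2 fold change -0.38, standard error 0.07), and Rps28 had 1339, 1653 and 1545 against 1649, 2010 and 1805 CPM (-0.34). Both were lower on each of the 3 plates. Rpl28 (-0.30), Rpl17 (-0.28) and Rpl22 (-0.27) followed. The paralogues rose, Rpl7l1, a relative of Rpl7, from 80.2, 84.5 and 92.9 CPM to 125, 136 and 135 CPM (0.55, standard error 0.12), and Rps27l by 0.24. Rpl22l1, Rpl3l and Rpl10l were not tested here for low counts.

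In cycling wells of BME, mitochondrial ribosomal protein genes rose in 32 of 76 cases (median 0.36) and other initiation factors in 14 of 19 (median 0.41), while translation partners had the same median as the ribosomal protein genes, -0.16, with 5 of 23 higher and 10 lower. Npm1 (0.40) was among the higher, and Tpt1 (-0.47) and Eef2 (-0.46) were among the lower. In Collagen I 0 of 75 ribosomal protein genes were called by edgeR, 7 had an unadjusted p under 0.05, and DESeq2 and limma-voom called 0 each, beside 8.72% of all genes called (3.63% lower). The difference of the cycling effect between the matrices was called for 0 of 75 genes by each of the 3 tools, with 6 at an unadjusted p under 0.05 in edgeR, beside 0.859% of all genes (0.392% higher and 0.468% lower). Its median was 0.12, against 0.07 over all genes.

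The paralogues were compared with the genes they are named after, by level over all wells. Rps27l had 556 CPM as a mean over plates while Rps27 had 1.09 CPM, and Rpl7l1 had 108 CPM beside 2128 CPM of Rpl7. Rpl22l1 had 4.57 CPM beside 971 CPM of Rpl22, Rpl10l had 0.478 CPM beside 3236 CPM of Rpl10, and Rpl3l, known from striated muscle, had 0.0467 CPM beside 2075 CPM of Rpl3. Rpl10l and Rpl3l were listed at 0 on both Collagen I plates, which at 3 counts of the total allows more than their level in BME, so a change was not detectable at this depth.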

How the data were processed

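SORT-seq wells of MMTV-PyMT organoids were sequenced on 5 plates, 3 of BME and 2 of Collagen I. The authors deposited 1 table per plate, with estimated counts of transcripts per gene and well after unique molecular identifiers were corrected for saturation; BWA and mm10 are given in the submitters' processing notes, without versions. The total was 9077590 to 10911740 counts per BME plate and 1091410 to 1631981 per Collagen I plate.

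Estimated counts were summed per plate and class of wells and rounded. Classes were set by keratin and mitosis genes as described above. edgeR 4.0.16 in R 4.3.3 was used for the quasi-likelihood test, with TMM factors, filterByExpr and Benjamini-Hochberg adjustment over all genes at 0.05. The matrices were compared over plates, and the classes with the plate as a block and a class effect for each matrix, whose contrast gave the difference. Depth per plate limits the precision for rare genes, above all in Collagen I. Alternatives used limma 3.58.1 (voom), DESeq2 1.42.0, other scalings, filters, class limits and left-out plates. The code was tested on simulated data.

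The genes, lists and tests were chosen with earlier results of these data known. The genes named are the 10 with the highest mean level, up to 6 per direction and comparison with the largest change among those called, Rpl3, Rpl4, Rpl5, Rpl11, Rps6, Rps27a, Rpsa, the stalk genes and the paralogues; others were named after their values were seen. Sequences are from RefSeq, build GRCm38.p6. Some genes that this rule takes in are not reported here.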

Additional observations from a re-analysis of the deposited data

Results flagged for a closer look

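The basal effect differed between BME and Collagen I, by the test of the difference itself, in 34 ribosomal protein genes. Those with the largest differences, Collagen I minus BME on the log2 scale, were Rplp1 (-0.57), Rps20 (-0.57), Rpl36a (-0.57), Rpl37a (-0.55), Rps28 (-0.55) and Rpl13 (-0.54). They were singled out because the same contrast gave different effects in the 2 matrices, whose plates also differ in run and depth. Groups of 3 and 2 plates were too small to test for a single plate far from the others.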

How the results depend on the processing

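Leaving out each plate in turn gave 3 to 39 ribosomal protein genes called between matrices in basal wells, 0 to 39 in non-basal and 0 to 38 in cycling wells, 3 to 10 between basal and non-basal wells in BME, 3 to 45 in Collagen I, 6 to 30 for the difference, 5 to 12 between cycling and non-cycling wells in BME, 0 to 1 in Collagen I and 0 for the cycling difference. Shares ranged from 14.3% to 15.9%, 13.6% to 15.5% and 13.6% to 15.6% in basal, non-basal and cycling wells of BME, and from 10.2% to 11.7%, 12.99% to 13.3% and 12.4% to 13.1% in Collagen I.

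Between matrices, no filter on low counts gave 39, 18 and 13 calls in basal, non-basal and cycling wells. The shares of all genes called were 14.4%, 20.8% and 10.2%. ERCC scaling gave 2, 3 and 0, beside 4.98%, 18.7% and 0.356% of all genes. Keratin classes without cycling wells gave 32 in basal wells, each of them lower, and 2 in non-basal wells, each of them higher. Equal weights per well gave 5 in non-basal and DESeq2 8 in cycling wells. With ERCC scaling Rps15 (-0.21), Rpl38 (-0.31) and Rps28 (-0.33) reversed in non-basal wells. For basal against non-basal wells, limma-voom gave 19 calls in BME, beside 37.3% of all genes. DESeq2 gave 4, 32 and 16 in BME, in Collagen I and for the difference, beside 21.4%, 5.47% and 2.29% of all genes. Wells without the top 5% by counts gave 5, 29 and 11 (31.5%, 5.53% and 2.90%). Classes without cycling wells gave 3, 3 and 17 (11.8%, 3.29% and 2.24%). Library sizes alone gave 30 in Collagen I (7.47% of all genes), and a class limit of 10 gave 54 for the difference (5.22%). For cycling wells of BME, the 33 calls became 18 with RLE, 16 with library sizes, 15 with TMM without the ribosomal protein and other abundant genes, 8 without the filter, 52 with limma-voom, 4 with DESeq2, 12 with wells over 2000 counts, 12 without the mitochondrial limit, 9 without the top 5% of wells, 14 with a class limit of 10, 12 with 2 marker transcripts and 18 with the saturation correction undone. In cycling wells of Collagen I there were 2 calls with library sizes, 1 without the filter and 2 with a class limit of 10. Counts given here without a share over all genes show only how far the number of calls moved. The causes were not tested.

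Without chromosome M, Rn45s, Malat1 and Lars2 in the denominator, the shares were 17.9%, 17.4% and 17.3% in basal, non-basal and cycling wells of BME and 12.99%, 15.9% and 15.3% in Collagen I. Per ERCC count the mean ribosomal protein counts were 5.25, 5.86 and 5.94 in BME and 3.05, 3.09 and 4.17 in Collagen I. The Collagen I plates lay far apart, with 3.98, 4.26 and 6.58 on plate 1 and 2.12, 1.93 and 1.76 on plate 3. In cycling wells plate 1 lay above the BME plates (5.28 to 6.52). The results scaled to ERCC carry this spread. In Collagen I the share was 12.8% in non-basal wells without the mitochondrial limit, and 12.2% in cycling wells as the median over wells.

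The matrices share the replicate numbers 1 and 3, which pair nothing by the labels. With the replicate number as a block, 7 genes were called in basal, 10 (7 higher, 3 lower) in non-basal and 2 in cycling wells. Of 1308 values of named genes under the alternatives, 1047 kept direction and side of the threshold, 214 lost the call, 44 gained one and 3 reversed. Depth limits what can be seen in genes with few counts in Collagen I.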
